A study of Mus musculus with 9 samples.

Results

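Spinal cords of vehicle-treated mice with experimental autoimmune encephalomyelitis (EAE) were compared with naive spinal cords, gene by gene. The comparison used the 3 libraries labelled Vehicle and the 3 labelled Naïve, 6 of the 9 libraries of the series, and was described across the 15351 of 40879 gene symbols with enough counts to be tested. All mice were wild type (WT) and the tissue was whole spinal cord. The naive group carried no disease, and the vehicle group had EAE and received vehicle, the control for the peptide GV1001 that the remaining 3 libraries tested. Strain, sex, age, the antigen used, the day after induction and the clinical score are not given in the sources used here. RNA was isolated with TRIzol or with a Maxwell RSC miRNA kit, and the labels do not say which was used for which library. Libraries were made with Lexogen's QuantSeq V2 FWD kit, which primes on the poly(A) tail and reads the 3′ end of each transcript. The labels do not say that replicates came from separate animals, so p-values measure only the spread between these samples.

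EAE is a mouse model of multiple sclerosis in which T cells that recognise myelin enter the cord and recruit monocytes. The cord's own microglia and astrocytes become activated, myelin is stripped from axons, and neurons and their synapses can be damaged. T cell cytokines such as interferon gamma act on microglia, macrophages, astrocytes and vessel cells, where they induce antigen presentation, chemokines and GTPases that defend against microbes. Interleukin 6 family cytokines act on astrocytes and vessels through the transcription factor STAT3 and induce acute-phase proteins.

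The libraries carried the transcripts of their labelled tissue. Of 27 Hox genes that mark positions along the cord, 24 had enough counts to be tested, Gfap, Mbp, Snap25 and Chat were counted in each library, and of 7 forebrain genes listed, 2 had enough counts to be tested, Neurod2 at 7.04 to 22.5 CPM and Neurod6 at 2.35 to 4.91 CPM over the 6 libraries. Total counts were 5542411 to 5792583 in the naive and 5247246 to 5736823 in the vehicle libraries, so 3 counts, the limit that a count of 0 allows, came to 0.518 to 0.572 CPM (counts scaled to a common library size) in a library. Of the 6 libraries, 3 stood apart. Vehicle 1 had the highest levels of most inflammatory genes and vehicle 2 the lowest among the vehicle libraries. Naive 2 held transcripts of dorsal root ganglion neurons and few counts of posterior Hox genes. Hoxd10, active in the lumbar cord, had 214, 29 and 173 counts in naive 1 to 3 and 129, 197 and 174 in vehicle 1 to 3. Vehicle libraries differed from each other more than naive ones, with a chi-square per degree of freedom of 13.39 to 33.63 between pairs of vehicle libraries and 2.47 to 4.11 between pairs of naive libraries.

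Inflammatory genes were higher in the vehicle group, many of them several-fold, and genes of neurons, myelin and sterol synthesis were lower by smaller amounts. In edgeR's quasi-likelihood test, 3 genes rose at a Benjamini-Hochberg adjusted p under 0.05 (0.0195% of the genes tested) and 0 fell (0%), while 2970 genes had an unadjusted p under 0.05. DESeq2, a count test with another estimate of the spread, called 823 of the same genes higher (5.36%) and 286 lower (1.86%), and limma-voom called 0 in either direction. Without reference to any test, 1849 genes (12%) had all 3 vehicle libraries above all 3 naive ones, and 1799 (11.7%) had all 3 below. Of all genes tested, 7598 had a positive and 7753 a negative fitted log2 fold change. Counts of calls depended on single libraries. Without vehicle 2, edgeR called 1183 genes higher and 469 lower. Without naive 1, naive 2 or naive 3 it called 0, without vehicle 3 it called 1 higher and without vehicle 1 it called 4 higher and 1 lower. In a check added after seeing the data, DESeq2 called 257, 1227 and 566 of the same 15351 genes higher without vehicle 1, 2 and 3, and 327, 471 and 385 without naive 1, 2 and 3. Lower calls were 158, 548 and 107, and 66, 90 and 75. Genes without overlap on the higher side were 17.1%, 21.2% and 15.9% of those tested without vehicle 1, 2 and 3 and 15.3%, 16.7% and 15.4% without naive 1, 2 and 3. On the lower side the shares were 17.8%, 21.9% and 15.4%, and 15.4%, 16.4% and 15.7%. Counts for gene lists with a library left out are set against these. They are given for many lists where they moved by over 1.5 times, but not for all.

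The genes that DESeq2 called higher and those it called lower differed in level and in size of difference. Higher genes had a median naive level of 8.18 CPM against 19.6 CPM over all genes tested, and lower genes one of 130 CPM. Under 1 CPM in the naive group were 17.3% of the higher genes, 0% of the lower ones and 1.72% of all. Genes that low could pass the count filter only through EAE libraries and could hardly be called lower. The part of this in the contrast was not tested. Among the higher genes, 565 (68.7%) differed by more than 2-fold, 359 by more than 4-fold and 95 by more than 16-fold. Among the lower genes, 18 (6.29%) differed by more than 2-fold. Together, the higher genes took 3.87%, 4% and 4% of the counts in naive 1 to 3, and 11.1%, 5.59% and 8.14% in vehicle 1 to 3. Lower genes took 13% to 13.5% in the naive and 9.33% to 9.9% in the vehicle libraries. Because whole tissue was sequenced, fewer cells of a type and less RNA per cell cannot be told apart.

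**Figure D1:**
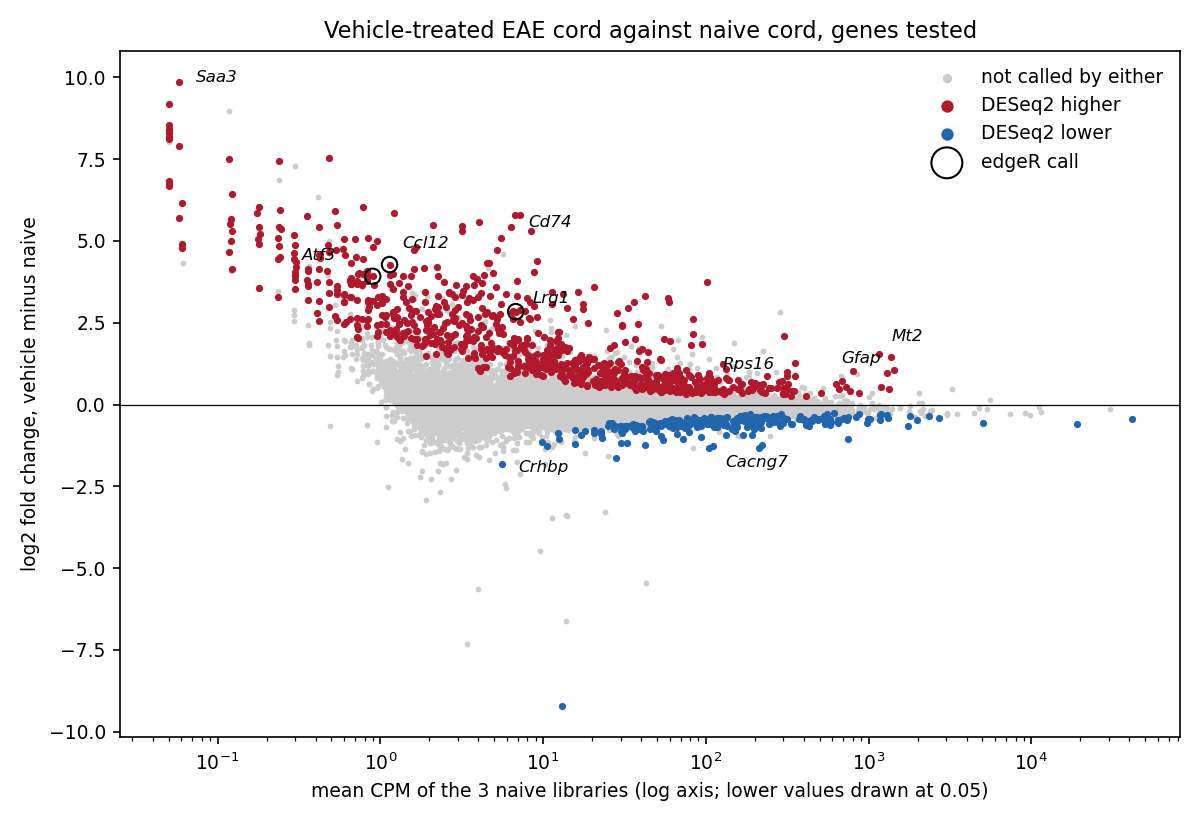
Each point is a gene, with the mean CPM of the 3 naive libraries on the x axis (log axis, lower values drawn at 0.05) and the fitted log2 fold change, vehicle against naive, on the y axis. Red and blue points are genes that DESeq2 called higher and lower, and circles mark the 3 that edgeR called. The 823 higher calls reach far larger differences than the 286 lower ones, which lie at higher naive levels. The blue point at the bottom is Scn11a.

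Atf3, Ccl12 and Lrg1 were the 3 genes that rose in the edgeR test. Every other gene named below missed its threshold in that fit of all 9 libraries, also where only a DESeq2 adjusted p is printed. Atf3 encodes a stress-induced transcription factor known from injured neurons and activated glia and macrophages. Its level was 0.724, 1.05 and 0.925 CPM in naive 1 to 3 and 19.4, 9.2 and 13 CPM in vehicle 1 to 3, a 15.1-fold rise with a log2 fold change of 3.92 ± 0.47 (SE; edgeR adjusted p = 0.0258, DESeq2 adjusted p = 1.68e-09). Ccl12 encodes a monocyte-attracting chemokine, a ligand of CCR2. Its level was 1.09, 1.39 and 0.925 CPM in the naive and 27.4, 21.6 and 19 CPM in the vehicle libraries, 19.5-fold higher (4.28 ± 0.51, edgeR adjusted p = 0.0258). Lrg1 encodes a secreted acute-phase glycoprotein made by vessels and other cells. It stood at 5.07, 6.97 and 8.33 CPM against 55.7, 58 and 32.9 CPM, 7.17-fold higher (2.84 ± 0.34, edgeR adjusted p = 0.0258). In each of the 3 genes the lowest vehicle library lay far above the highest naive one, and vehicle 2, low for most inflammatory genes, was the highest library for Lrg1 and lay between the others for Ccl12. Ccl12 and Ccl2 are close in sequence, so reads could have been split between them.

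**Figure D2:**
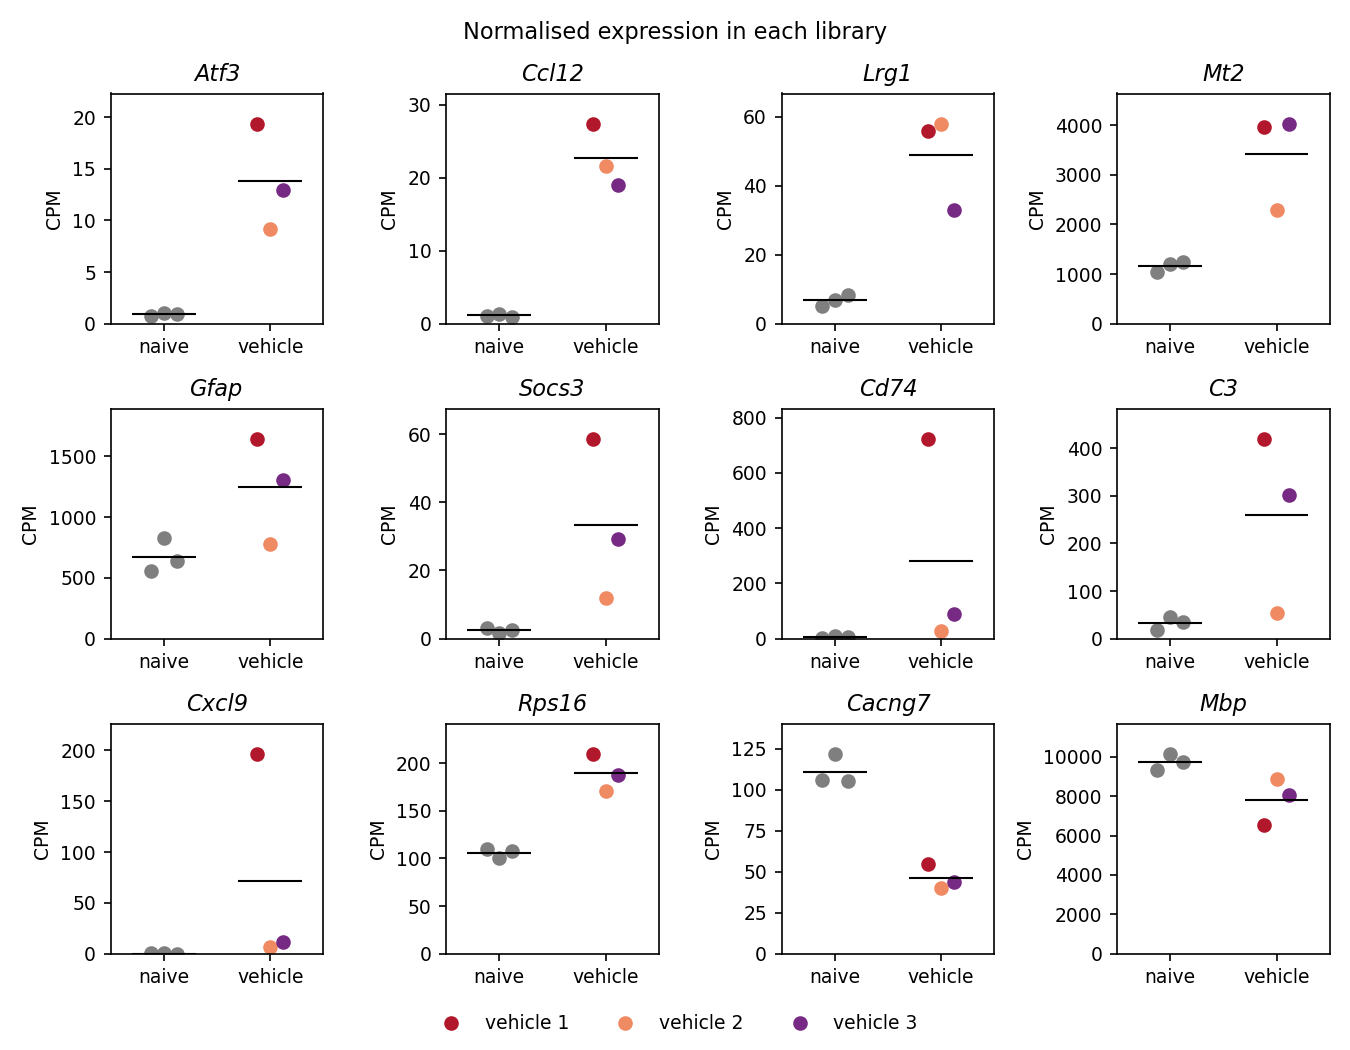
Levels of 12 genes in each of the 6 libraries are shown in CPM on axes that start at 0, with naive libraries as grey points, vehicle 1, 2 and 3 as red, orange and purple points and group means as lines. Atf3, Ccl12, Lrg1 and Mt2 are high in all 3 vehicle libraries, Cd74 and Cxcl9 are spread widely among them, Gfap overlaps between the groups, and Cacng7 is lower in all 3.

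Higher genes differed in how evenly the 3 vehicle libraries shared the difference. Of the 735 genes that DESeq2 called higher and whose groups did not overlap, 632 (86%) had their highest level in vehicle 1, 79 in vehicle 3 and 24 in vehicle 2. Their median difference from the naive mean was 2.29, 0.74 and 1.34 on the log2 scale in vehicle 1 to 3. In 268 of them (36.5%) the highest vehicle library was less than 2-fold above the lowest, and in 130 (17.7%) it was at least 8-fold above. Antigen presentation by class II molecules was the most graded of the immune lists with at least 13 tested members, with a median ratio of 13.7 between the highest and lowest vehicle library. The list of interferon gamma responses had a ratio of 7.31, disease-associated microglia 6.94, the STAT3 list 2.72 and ribosomal proteins 1.41. Over all genes tested this ratio was 1.43 in the vehicle and 1.25 in the naive group. The 285 lower genes without overlap were more even, with a ratio of 1.27, and 276 of them (96.8%) stayed under 2-fold.

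**Figure D3:**
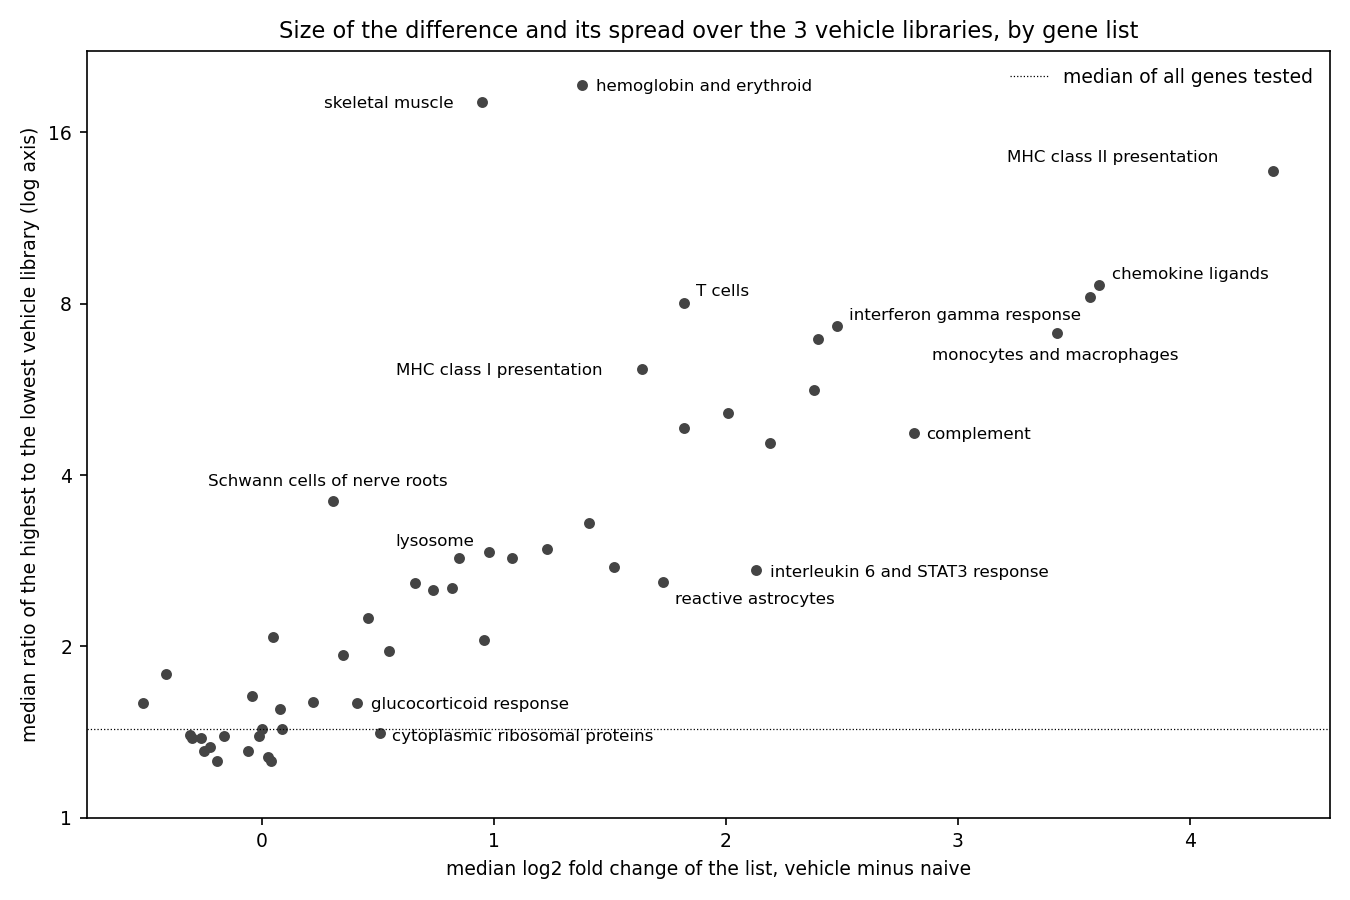
Each point is a gene list, with the median log2 fold change of its tested members on the x axis and the median ratio of the highest to the lowest vehicle library on the y axis (log axis). The dotted line is the median ratio of all genes tested, 1.43. The STAT3 list lies at 2.72, below lists with like fold changes, and hemoglobin and skeletal muscle genes lie at the top.

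Among the lists with a median log2 fold change above 2, that of the interleukin 6 and STAT3 response was the most even over the vehicle libraries. Of 18 tested members (of 21 listed), 17 had positive fold changes, 16 had no overlap between groups and DESeq2 called 16 higher and 0 lower, with a median log2 fold change of 2.13 against -0.0 over all genes. Osmr, the receptor subunit for oncostatin M, stood at 2.72, 4.71 and 3.15 CPM in the naive and 15.4, 13.1 and 22.9 CPM in the vehicle libraries (4.84-fold, 2.28 ± 0.4, edgeR adjusted p = 0.0629, DESeq2 adjusted p = 2.34e-05). Its ligand gene Osm was not tested, with 2 counts over the naive and 37 over the vehicle group, a ratio of 18.5 (95% interval 4.78 to 159). All 3 vehicle libraries lay well above the naive ones for the receptor gene, with vehicle 3 the highest and not vehicle 1.

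Stat3 itself stood at 210, 280 and 227 CPM against 511, 395 and 398 CPM, 1.82-fold higher without overlap (DESeq2 adjusted p = 1.57e-04). Socs3, a feedback inhibitor that STAT3 induces, stood at 3.08, 1.74 and 2.59 CPM against 58.7, 11.8 and 29.1 CPM (13.4-fold, DESeq2 adjusted p = 9.76e-04). Cebpd, a transcription factor of the acute phase, was 6.27-fold higher at 6.34, 10.6 and 7.59 against 89.4, 28.4 and 37.3 CPM (DESeq2 adjusted p = 7.33e-09). Both regulators were highest in vehicle 1 and lowest in vehicle 2, yet even vehicle 2 exceeded each naive library. Secreted proteins of the list were more graded. Lcn2, an iron-scavenging protein, stood at 1.45, 6.97 and 1.11 against 303, 36.8 and 46.6 CPM, and the protease inhibitor Serpina3n at 16.8, 20.9 and 24.1 against 536, 51.8 and 157 CPM. Saa3, a serum amyloid gene, had 1 count in the naive and 1246 in the vehicle group, a ratio of 1248 (95% interval 224 to 49343). Without vehicle 1 the median of the list was 1.61 and 16 of 18 members had no overlap. DESeq2 then called 10.

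Reactive astrocyte genes were higher, while genes of astrocyte upkeep stayed near their naive level. Of 24 reactive genes, 16 had no overlap and were higher, DESeq2 called 16 higher and 0 lower, and the median was 1.73. Without naive 1 it called 10. Vim, an intermediate filament gene, stood at 71.3, 105 and 75.3 against 536, 165 and 421 CPM (4.46-fold, DESeq2 adjusted p = 0.00152). Gfap, the filament gene most used as a marker of reactive astrocytes, stood at 560, 825 and 643 against 1647, 779 and 1307 CPM, and did not pass either test (1.84-fold, edgeR adjusted p = 0.189, DESeq2 adjusted p = 0.223). Its level in vehicle 2 was below that of naive 2. Without vehicle 2 its log2 fold change was 1.13.

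Several less used astrocyte genes separated the groups without the overlap seen for Gfap. Cp, which encodes the ferroxidase ceruloplasmin, stood at 36.2, 57.7 and 38.5 against 177, 87.7 and 141 CPM (3.06-fold, DESeq2 adjusted p = 2.50e-06). Hspb1, a small heat shock protein gene, was 2.44-fold higher at 28.4, 35.6 and 22.8 against 56.7, 66.7 and 88.3 CPM (DESeq2 adjusted p = 1.70e-04). Timp1, an inhibitor of matrix proteases, reached 132 CPM in vehicle 1 but 7.14 in vehicle 2 and 20.7 in vehicle 3, from 0.349 to 1.09 CPM in the naive group. Of the 21 genes of astrocyte homeostasis, DESeq2 called 2 higher and 2 lower, with a median of 0.03. The higher ones were Slc1a3, a glutamate transporter gene, and Aldh1l1, a folate enzyme gene, at 1.43-fold and 1.6-fold. Those lower were the amino acid transporter gene Slc7a10 (1.55-fold lower, 52.3, 47.9 and 52.4 against 27.2, 40.8 and 30.5 CPM) and S100b, while Slc1a2, the main glutamate transporter gene of astrocytes, was at 1943 to 2247 against 1833 to 2385 CPM. With vehicle 3 or naive 2 left out, DESeq2 called 0 of the homeostasis genes. With vehicle 2 left out it called 2 higher and 4 lower.

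Metallothioneins bind zinc and copper and are induced by metals, glucocorticoids and STAT3. Mt2 stood at 1032, 1211 and 1237 CPM in the naive and 3959, 2292 and 4035 CPM in the vehicle libraries, 2.96-fold higher (1.56 ± 0.22, edgeR adjusted p = 0.0629, DESeq2 adjusted p = 1.29e-10). Mt1 stood at 1346, 1432 and 1550 against 3697, 1835 and 3402 CPM (2.06-fold, DESeq2 adjusted p = 3.29e-04), and Mt3, the neural form, was 1.25-fold higher. For Mt1 and Mt2 even the lowest vehicle library, vehicle 2, lay above each naive library, though the sequences of the family are close enough that reads could have been split. The other 7 tested members of the list, zinc transporters and the zinc sensor Mtf1, gave DESeq2 calls in 0 cases. With vehicle 1 left out, DESeq2 called 1 member of the list. Promoters of Mt1 and Mt2 are shown because both genes moved together, with the metal response element (MRE) core TGCNCNC, or GNGNGCA on the other strand, in capitals. Both come from RefSeq on GRCm38.p6, 250 bases before to 50 after the start, at chr8:94172368-94172667 for Mt2 and chr8:94178839-94179138 for Mt1, each on the plus strand.
Mt2: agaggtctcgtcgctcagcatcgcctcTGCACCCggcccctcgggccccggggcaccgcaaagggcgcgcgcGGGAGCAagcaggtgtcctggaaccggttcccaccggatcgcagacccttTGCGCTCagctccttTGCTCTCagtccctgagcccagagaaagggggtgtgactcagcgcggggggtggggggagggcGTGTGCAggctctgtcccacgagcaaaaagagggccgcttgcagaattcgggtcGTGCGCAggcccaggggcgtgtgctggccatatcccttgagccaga
Mt1: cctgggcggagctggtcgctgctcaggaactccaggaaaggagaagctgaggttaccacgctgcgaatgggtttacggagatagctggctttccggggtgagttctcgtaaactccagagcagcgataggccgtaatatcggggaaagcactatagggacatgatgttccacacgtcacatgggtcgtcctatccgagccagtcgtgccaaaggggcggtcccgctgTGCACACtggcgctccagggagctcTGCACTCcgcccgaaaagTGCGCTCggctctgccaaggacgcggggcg
The Mt2 window held 6 matches and the Mt1 window 3. Of 9 promoters available for the list, 9 held a match, but this short core also occurred in 64.4% of the 11740 promoters available for the genes tested.

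Immediate early and stress genes had mostly small positive differences, with larger ones for Atf3 and a few others. Of 23 tested, 22 had positive fold changes, 6 had no overlap and DESeq2 called 4 higher and 0 lower, with a median of 0.55. It called 9 without vehicle 2, 1 without vehicle 1 or naive 1, and 2 without any other of the libraries compared. The median was 0.38 without vehicle 1. Junb, a component of the AP-1 transcription factor, stood at 11.4, 14.1 and 7.59 against 51.5, 16.7 and 25.9 CPM (2.83-fold, DESeq2 adjusted p = 0.0121), and Egr2 at 2.9, 4.36 and 6.11 against 10.9, 7.51 and 11.2 CPM (2.22-fold, DESeq2 adjusted p = 0.0212). Cebpb, a transcription factor of inflammation, stood at 10.3, 12.5 and 11.7 against 72.2, 14.1 and 33 CPM (3.45-fold, DESeq2 adjusted p = 0.0616). Sprr1a, which injured neurons induce, stood at 0, 3.31 and 0.185 against 0.185, 15 and 26.6 CPM, so the 2 vehicle libraries high in it left out vehicle 1, the most inflamed one. The CRE motif TGACGTCA, which ATF family factors can bind, was found in 2 of 20 promoters of the list and in 3.3% of all.

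The MHC class II list, whose genes present antigen to helper T cells, had the highest median of the lists with at least 13 tested members. All 13 tested of 16 listed were positive, 12 had no overlap and DESeq2 called 12 higher, with a median of 4.36. Cd74, the chaperone that guides class II molecules through the cell, stood at 3.8, 9.59 and 5.74 against 724, 26.3 and 89.5 CPM (43.5-fold, 5.44 ± 1.35, edgeR adjusted p = 0.0772, DESeq2 adjusted p = 0.00129). H2-Aa, a class II alpha chain gene, stood at 2.9, 10.1 and 7.03 against 928, 43.4 and 137 CPM (54.8-fold, DESeq2 adjusted p = 3.56e-04). Vehicle 1 lay far above vehicle 3, and vehicle 3 above vehicle 2, for both. Ciita, the transactivator of class II genes, had 2 counts over the naive and 205 over the vehicle group, a ratio of 103 (95% interval 28.1 to 854). The protease Ctss, which trims the chaperone, stood at 93.8, 98.6 and 111 against 2908, 334 and 858 CPM (13.5-fold, DESeq2 adjusted p = 0.00402). Cd86, a costimulatory ligand, was the member whose groups overlapped. Without vehicle 1 the median was 2.82 and 12 of 13 still had no overlap, against 17.1% of all genes tested then. DESeq2 called 5 without vehicle 1 and 7 without naive 1.

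Class I genes followed at smaller folds. Of 16 tested, 16 were positive, 13 had no overlap and DESeq2 called 10 higher, with a median of 1.64. It called 2 without vehicle 1, naive 1 or naive 2 and 1 without naive 3. Without vehicle 1 the median was 1.09 and 13 still had no overlap. B2m, the light chain of class I molecules, stood at 233, 318 and 303 against 4653, 394 and 978 CPM, and did not pass (7.06-fold, edgeR adjusted p = 0.111, DESeq2 adjusted p = 0.065). H2-K1, a heavy chain gene, stood at 57.2, 59.6 and 62.2 against 1169, 111 and 277 CPM (8.69-fold, DESeq2 adjusted p = 0.0214). Psme2, a proteasome activator subunit, was more even at 12.7, 9.41 and 13.1 against 58.9, 24.8 and 27.6 CPM (3.16-fold, DESeq2 adjusted p = 1.54e-04). Reads of H2 heavy chain genes may be shared among near-identical copies.

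Interferon-induced genes were higher in nearly every case, but rested on vehicle 1 for their size. Of 22 tested genes of the interferon gamma response, 22 were positive, 16 had no overlap and DESeq2 called 7 higher, with a median of 2.48. Median differences from the naive mean were 3.49 in vehicle 1, 0.86 in vehicle 2 and 1.06 in vehicle 3, and the median was 1.12 without vehicle 1. DESeq2 called 11 without vehicle 2, 2 without vehicle 1, naive 1 or naive 2, and 1 without naive 3. Cxcl9, a chemokine for T cells that depends strongly on interferon gamma, had 2 counts over the naive group and 1066, 33 and 67 in vehicle 1 to 3, a ratio of 584 (95% interval 161 to 4829). Gbp2, a guanylate-binding GTPase, stood at 5.25, 4.18 and 4.07 against 229, 21.4 and 23.2 CPM (20.1-fold, 4.33 ± 1.19, DESeq2 adjusted p = 0.00556). Gbp2 was close in vehicle 2 and vehicle 3, Cxcl9 was lower in vehicle 2 than in vehicle 3, and both were several times higher in vehicle 1. The kinase gene Jak1, upstream of them, was at 313, 361 and 351 against 418, 308 and 322 CPM, with overlap. Ifng itself had 0 naive counts and 10, 0 and 0 in vehicle 1 to 3. Set against 3 counts for the naive group, the floor used wherever a group has none, this is at least 3.34-fold higher. Such a bound allows for counting error in the naive group but not in the vehicle counts, and those of Ifng all lay in vehicle 1.

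Type I interferon genes gave 29 positive fold changes among 29 tested, 22 without overlap and 13 DESeq2 calls, with a median of 2.01. The median was 0.87 without vehicle 1, with 2 DESeq2 calls, and calls numbered 3, 4 and 6 without naive 1, 2 and 3. Ifit3, an antiviral protein gene, stood at 13.6, 11.3 and 8.7 against 125, 25.5 and 22.2 CPM (5.12-fold, edgeR adjusted p = 0.133, DESeq2 adjusted p = 0.0822). Trim30a was 6.39-fold higher at 6.88, 11.2 and 9.44 against 110, 31.2 and 35.1 CPM (DESeq2 adjusted p = 0.00203). Rsad2, which encodes the antiviral enzyme viperin, was the exception in its order, with 24.6, 26.3 and 13.4 CPM in vehicle 1 to 3 against 7.49 to 8.7 CPM in the naive group (2.63-fold, DESeq2 adjusted p = 0.00847).

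Promoters of genes that moved together are shown for both interferon lists and for STAT-responsive genes. The core of the interferon-stimulated response element (ISRE) was searched as GAAANNGAA, or TTCNNTTTC on the other strand, and the gamma-activated sequence (GAS), which STAT factors bind, as TTCNNNGAA. Capitals mark the ISRE core in Ifit3 and Gbp2 and the GAS core in Irf1 and Socs3. All 4 windows come from RefSeq on GRCm38.p6 and lie at chr19:34583279-34583578 (Ifit3, plus strand), chr3:142620413-142620712 (Gbp2, plus), chr11:53769764-53770063 (Irf1, plus) and chr11:117969317-117969616 (Socs3, minus).
Ifit3: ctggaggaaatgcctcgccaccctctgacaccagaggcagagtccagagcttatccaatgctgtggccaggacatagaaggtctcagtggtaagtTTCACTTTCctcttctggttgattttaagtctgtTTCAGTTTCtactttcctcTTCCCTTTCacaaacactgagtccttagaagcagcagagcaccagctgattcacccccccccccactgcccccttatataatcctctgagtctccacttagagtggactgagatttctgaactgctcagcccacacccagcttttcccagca
Gbp2: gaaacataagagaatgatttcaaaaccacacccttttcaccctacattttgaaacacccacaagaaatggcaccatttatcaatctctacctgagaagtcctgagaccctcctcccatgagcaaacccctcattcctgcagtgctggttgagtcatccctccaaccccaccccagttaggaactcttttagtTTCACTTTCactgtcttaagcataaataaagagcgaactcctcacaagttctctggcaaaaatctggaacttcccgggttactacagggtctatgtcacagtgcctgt
Irf1: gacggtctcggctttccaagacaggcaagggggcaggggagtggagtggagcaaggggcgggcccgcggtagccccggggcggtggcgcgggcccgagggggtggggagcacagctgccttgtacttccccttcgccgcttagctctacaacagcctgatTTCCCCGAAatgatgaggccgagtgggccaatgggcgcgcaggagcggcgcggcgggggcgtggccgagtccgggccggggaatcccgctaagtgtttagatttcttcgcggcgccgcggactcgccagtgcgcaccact
Socs3: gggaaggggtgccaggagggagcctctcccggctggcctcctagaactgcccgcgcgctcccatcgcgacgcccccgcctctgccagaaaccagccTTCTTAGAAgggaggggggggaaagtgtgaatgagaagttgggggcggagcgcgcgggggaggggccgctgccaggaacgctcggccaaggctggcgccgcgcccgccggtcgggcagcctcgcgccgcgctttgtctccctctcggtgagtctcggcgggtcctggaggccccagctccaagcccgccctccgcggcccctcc
The Ifit3 window held 3 ISRE cores, Gbp2 held 1, and Irf1 and Socs3 each held 1 GAS core. Irf1, an interferon-induced transcription factor, stood at 12.1, 17.1 and 16.5 against 200, 36.4 and 42.2 CPM. ISRE cores were found in 10 of 17 promoters of the interferon gamma list (58.8%) and 12 of 20 of the type I list (60%), against 8.65% of the 11740 promoters. For the GAS core the shares were 35.3% and 25% against 8.26%. In the interleukin 6 and STAT3 list, which holds Socs3, 2 of 16 promoters (12.5%) held a GAS core and 1 (6.25%) an ISRE core. Among the promoters of genes that DESeq2 called higher, 98 of 647 (15.1%) held an ISRE core and 81 (12.5%) a GAS core. Among those of genes it called lower, 22 of 205 (10.7%) held an ISRE core and 19 (9.27%) a GAS core. Windows of Atf3, Ccl12, Lrg1, Tap1 and Psmb9 held none of the motif sought in each, CRE for Atf3, GAS for Lrg1 and ISRE and GAS for the other three, and a second RefSeq window of Irf1 at chr11:53770223-53770522 held no GAS core. These are letter matches and no binding was measured.

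Chemokine genes were higher in a graded way, with Ccl12 as the exception already described. Of 22 tested ligands, 21 were positive, 14 had no overlap and DESeq2 called 11 higher, with a median of 3.61. It called 3 without vehicle 1 and 6, 7 and 5 without naive 1, 2 and 3. Ccl5, a ligand for T cells and monocytes, stood at 0, 0.523 and 0.925 against 260, 10.9 and 8.81 CPM. Ccl2, the best known ligand of CCR2, stood at 0.181, 0.523 and 0.74 against 40.7, 4.32 and 3.22 CPM, and DESeq2 gave it no adjusted p. Ccl8, another monocyte attractant, had 3 counts over the naive group and 77, 13 and 55 in vehicle 1 to 3, a ratio of 48.4 (95% interval 16.2 to 238). Vehicle 1 was the highest for all 3 of these ligands, by a wide margin for Ccl2 and Ccl5. Ccl12, in contrast, differed by 1.44-fold among the vehicle libraries. Cx3cl1, the neuronal ligand of microglia, was at 177, 157 and 182 against 140, 170 and 139 CPM, with overlap. Among 7 tested receptors of 15 listed, DESeq2 called 6 higher. It called 2 without vehicle 1 and 3 without naive 1 or naive 3. Ccr2, which marks inflammatory monocytes, stood at 1.63, 2.09 and 1.11 against 67.9, 5.07 and 14.4 CPM (17.7-fold).

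Most complement genes were higher, among them the chains of C1q and C3. Of 21 tested, 19 were positive, 17 had no overlap on the higher side and 2 on the lower, and DESeq2 called 16 higher and 0 lower, with a median of 2.81. It called 5 without vehicle 1, 9 without naive 1 and 10 without naive 3. C1qc, a chain of the C1q complex made by microglia and macrophages, stood at 38.7, 46 and 41.8 against 788, 113 and 373 CPM (10.1-fold, 3.33 ± 0.67, edgeR adjusted p = 0.0686, DESeq2 adjusted p = 0.00101). C3, the central component, stood at 19.2, 45 and 35.2 against 420, 54.5 and 301 CPM (7.8-fold, DESeq2 adjusted p = 0.0175), with vehicle 2 barely above naive 2. On the lower side 2 of 21 (9.52%) had no overlap, a share below the 11.7% of all genes. Cd55, a surface inhibitor, was at 10.3, 23.9 and 12.6 against 6.48, 7.32 and 7.96 CPM, with naive 2 the highest (DESeq2 adjusted p = 0.0706), and Cr1l, another, at 14.3, 20.6 and 16.8 against 35.2, 13.7 and 23 CPM, with overlap.

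Inflammasome and NF-kB genes had a median of 2.38, with 26 of 27 positive, 19 without overlap and 16 DESeq2 calls. Leaving out vehicle 1 gave a median of 1.26 with 4 calls, and 2, 8 and 7 were called without naive 1, 2 and 3. Il1b, the main inflammasome product, stood at 0, 0.523 and 0.185 against 18, 7.14 and 2.03 CPM. Nfkbia, the NF-kB inhibitor that NF-kB itself induces, stood at 138, 168 and 142 against 569, 200 and 250 CPM (2.27-fold). Tnf had no naive count and was at least 12.7-fold higher. T helper cytokines were near the counting limit. Il17a had 5, 0 and 5 counts in vehicle 1 to 3 and 0 in the naive group, at least 3.34-fold higher, and Csf2, Il4 and Il22 had 0 counts in all 6 libraries, so their levels were not detectable at this depth. Il33, an alarmin gene of glia, was the abundant member at 95.8, 76.7 and 92.3 against 119, 104 and 133 CPM (1.35-fold, DESeq2 adjusted p = 0.0292). DESeq2 called 0 of the 4 tested T helper cytokine genes without vehicle 1, vehicle 3 or any naive library.

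Homeostatic microglial genes were higher as a list, but P2ry12, often used to mark resting microglia, overlapped between groups. Of 19 tested, 18 were positive, 14 had no overlap and DESeq2 called 13 higher, with a median of 1.52. It called 6 without vehicle 1 and 7, 8 and 7 without naive 1, 2 and 3. Fcrl2, listed under an older symbol as Fcrls, stood at 8.69, 6.97 and 7.77 against 32.8, 21.4 and 30.7 CPM (3.62-fold, 1.86 ± 0.29, edgeR adjusted p = 0.0629, DESeq2 adjusted p = 3.51e-06). Tmem119 stood at 9.23, 17.4 and 12.4 against 62.2, 34.9 and 28.5 CPM (3.2-fold, DESeq2 adjusted p = 0.00154). P2ry12, a purinergic receptor gene, was at 10.7, 9.41 and 15 against 22.8, 15 and 12.7 CPM and did not pass (1.44-fold, edgeR adjusted p = 0.299). Aif1, the gene of the marker IBA1, stood at 6.88, 6.97 and 11.1 against 151, 20.5 and 50.3 CPM (8.9-fold, DESeq2 adjusted p = 0.0148). Mertk, a receptor for engulfing dying cells, stood at 25.5, 32.4 and 29.4 against 106, 49 and 66.4 CPM (2.53-fold, DESeq2 adjusted p = 6.62e-05).

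Genes of disease-associated microglia, the state linked to myelin debris and lipid uptake, divided the vehicle libraries. Of 23 tested, 22 were positive, 15 had no overlap and DESeq2 called 18 higher, with a median of 2.4. Median differences from the naive mean were 3.32 in vehicle 1, 0.6 in vehicle 2 and 2.75 in vehicle 3, and without vehicle 2 the median was 2.85 with 22 of 23 members higher without overlap. DESeq2 called 7 without vehicle 1, 10 without vehicle 3 or naive 1 and 11 without naive 3. Apoe, which carries lipids between cells, stood at 1306, 1412 and 1419 against 4579, 1418 and 5396 CPM (2.75-fold, DESeq2 adjusted p = 0.0403). Gpnmb, a membrane protein of lipid-laden phagocytes, stood at 2.17, 3.66 and 3.7 against 288, 1.5 and 132 CPM. Spp1, which encodes osteopontin, stood at 83.7, 65.2 and 60.3 against 213, 64 and 227 CPM. For these 3 genes vehicle 2 lay within or just below the naive range, while vehicle 1 and vehicle 3 lay clearly above it. Without vehicle 2 the log2 fold changes were 1.86 for Apoe, 6.03 for Gpnmb and 1.66 for Spp1. Vehicle 2 was the lowest vehicle library for all 3, so leaving it out had to widen their differences. As edgeR then called 1183 genes higher, its calls of these 3 add no support.

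Some members of that list were above the naive range in all 3 vehicle libraries. Lpl, lipoprotein lipase, stood at 10.3, 15.7 and 11.8 against 61.5, 25.4 and 88.8 CPM (4.64-fold, edgeR adjusted p = 0.0662, DESeq2 adjusted p = 3.17e-06). Csf1, the growth factor of microglia, was the most even at 45.3, 47.1 and 42.6 against 103, 68.4 and 91.7 CPM (1.95-fold, DESeq2 adjusted p = 6.62e-05). Itgax, which encodes CD11c, had 2 counts over the naive group and 282, 8 and 143 in vehicle 1 to 3, a ratio of 217 (95% interval 59.7 to 1797), so vehicle 2 was far below the others. Trem2, the lipid receptor on which this microglial state depends, stood at 6.52, 7.49 and 12.2 against 121, 17.5 and 70.3 CPM.

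Monocyte and macrophage genes had a median of 3.43, with 23 of 25 positive, 20 without overlap and 19 DESeq2 calls. Leaving out vehicle 1 gave a median of 2.4 with 11 calls. Lyz2, lysozyme, stood at 2.72, 5.4 and 4.07 against 449, 20.1 and 117 CPM (47.6-fold, 5.57 ± 1.21, edgeR adjusted p = 0.0703, DESeq2 adjusted p = 1.42e-04). Cd14, the endotoxin co-receptor, was more even at 2.53, 2.79 and 2.04 against 39.4, 11.5 and 15.4 CPM (8.89-fold, DESeq2 adjusted p = 2.92e-06). Ly6c2, a marker of inflammatory monocytes, and the arginase gene Arg1 were concentrated in vehicle 1, at 55.9, 5.63 and 1.36 CPM and 104, 2.82 and 0.678 CPM, from under 1 CPM in each naive library. Mrc1, Cd163, Lyve1 and Pf4, markers of border macrophages in this list, all overlapped between groups. The 6 genes of the phagocyte oxidase were higher without overlap in 6 of 6 cases and DESeq2 called 6. It called 3 without naive 1 or naive 3, and the median of 3.57 was 2.08 without vehicle 1. Cybb, its catalytic subunit, stood at 5.25, 13.9 and 8.51 against 490, 22.5 and 68.4 CPM (20.8-fold).

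Neutrophil genes were mixed in their order over the vehicle libraries. Of 12 tested, 11 were positive, 2 had no overlap and DESeq2 called 1, with a median of 0.85. The member called, the lectin gene Clec4d, had 0 naive counts and 96, 5 and 14 in vehicle 1 to 3, at least 38.4-fold higher, and Csf3r, the receptor of their growth factor, was at 1.63, 0.523 and 0.185 against 7.59, 0.563 and 4.41 CPM. S100a8, an abundant neutrophil protein gene, stood at 9.42, 38.2 and 28.3 against 74.4, 93.9 and 35.2 CPM, so vehicle 3 lay below naive 2. Ngp, a granule protein gene of immature neutrophils, was at 2.72, 16 and 8.33 against 10.4, 28.7 and 14.1 CPM. Over the list, the median difference from the naive mean was highest in vehicle 2 and, among naive libraries, in naive 2. Hemoglobin and erythroid genes took 0.0255% to 0.486% of vehicle counts, with the top value in vehicle 2, and 0.0374% to 0.0697% of naive counts. The part of blood in the neutrophil values was not tested. Without naive 2 the median of the list was 1.33, with 7 of 12 members higher without overlap against 16.7% of all genes tested, and it was 0.53 without naive 1 and 0.54 without vehicle 2.

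Many lymphocyte genes came from near 0 and were counted mostly in vehicle 1, though not all. Among 27 T cell genes, 11 were tested, 3 had no overlap and DESeq2 called 5 higher, with a median of 1.82. The median was 0.67 without vehicle 1, with 1 call, and 2 were called without vehicle 3 or any naive library. Cd3d, a chain of the T cell receptor complex, had 0 naive counts and 86, 0 and 16 in vehicle 1 to 3, at least 34.1-fold higher. Cd4, the coreceptor of helper T cells, had 0 naive counts and 34, 3 and 2 in vehicle 1 to 3, at least 13-fold higher, though microglia and macrophages can express it too. Foxp3, which defines regulatory T cells, had 14, 0 and 5 vehicle counts against 0, at least 6.34-fold higher. Vehicle 2, with 0 counts of Cd3d and Foxp3, carried little T cell signal at this depth. Among B and plasma cell genes, 7 of 16 were tested, 3 had no overlap and DESeq2 called 4 higher, with a median of 1.82. It called 1 without vehicle 1 and 2 without vehicle 3, naive 1 or naive 3. Igkc, the kappa light chain, had 0 naive counts and 157, 9 and 48 vehicle counts, at least 71.5-fold higher, and Cd22, an inhibitory receptor of B cells, 77, 1 and 48 against 0, at least 42.1-fold higher. Ighm, the most abundant tested member of that list, was at 17.7, 16.2 and 14.2 against 23.7, 16.5 and 17.6 CPM, with overlap. Of 10 genes of natural killer cells, 0 had enough counts to be tested.

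**Figure D4:**
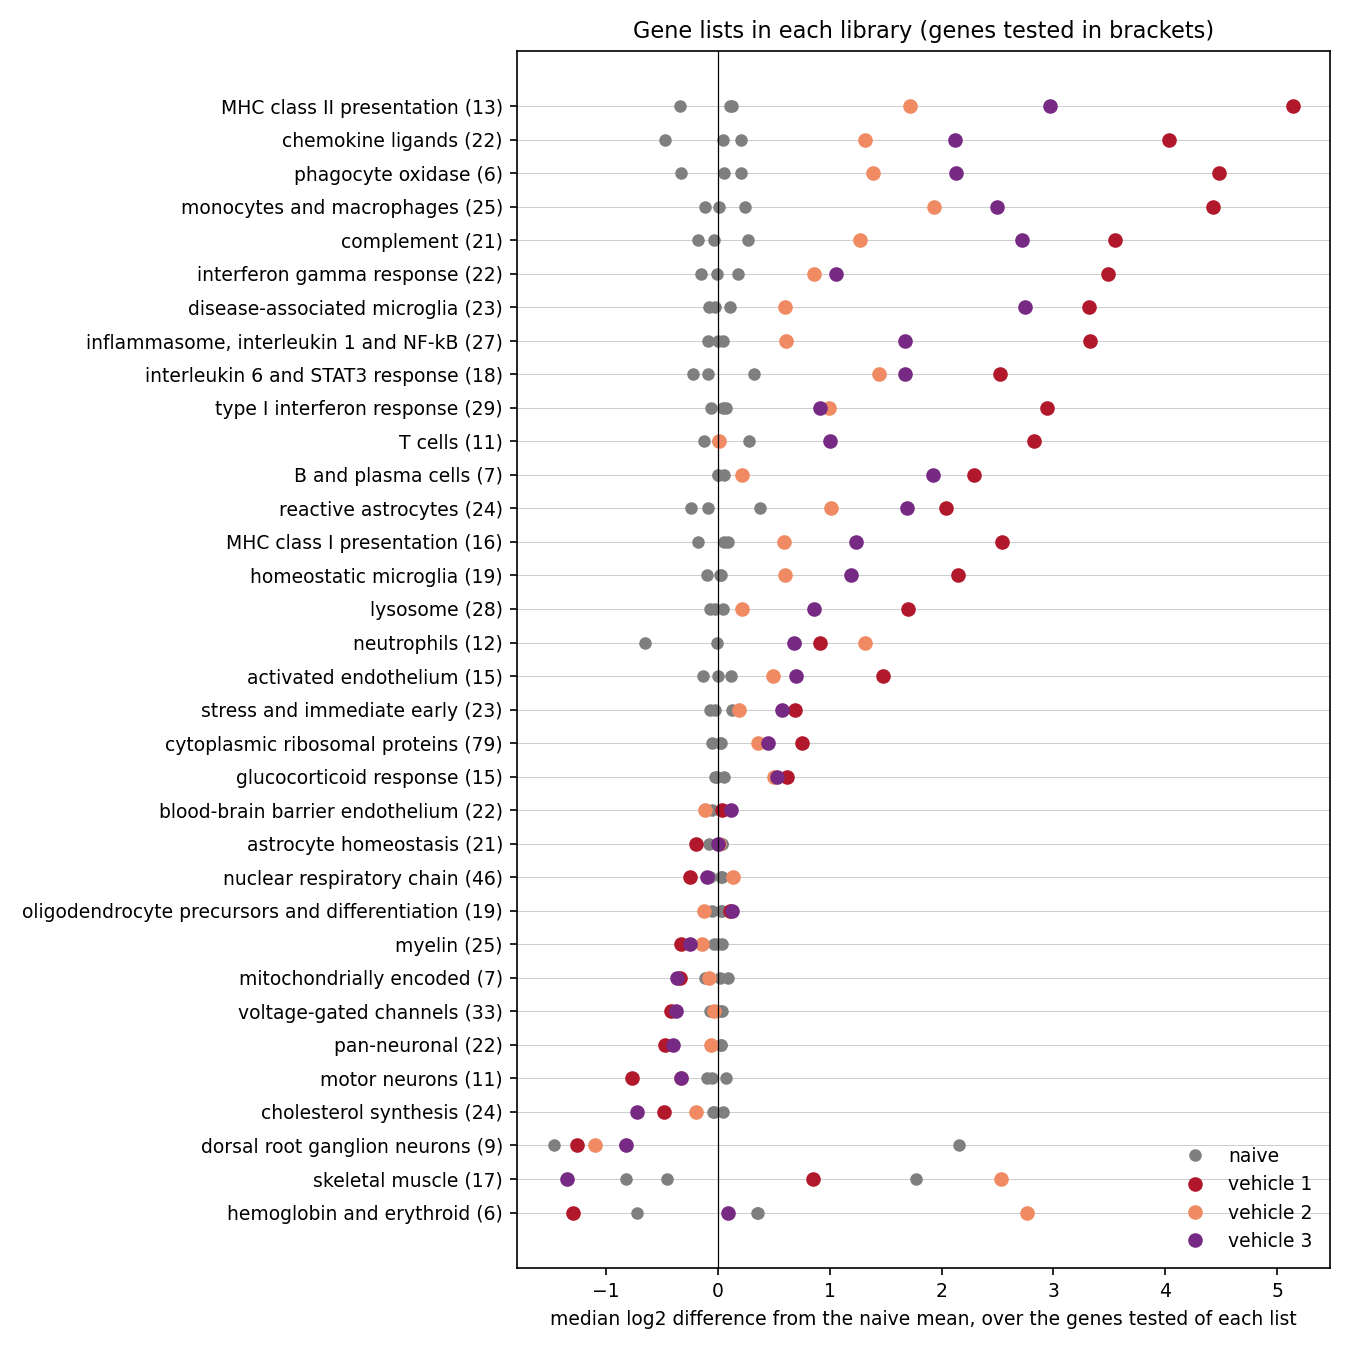
Median log2 difference from the naive mean over the tested members of 34 gene lists, shown for each of the 6 libraries. Most immune lists are highest in vehicle 1 and lowest in vehicle 2, the STAT3 list lies at 1.44 to 2.52 over the 3, and neuronal, myelin and sterol lists lie below 0.

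Vessel genes were divided between activation and barrier. Of 15 genes of activated endothelium, DESeq2 called 6 higher and 8 had no overlap, with a median of 0.74. It called 3 without vehicle 1 or naive 1. Vwf, von Willebrand factor, stood at 14.1, 19.9 and 21.6 against 55, 33.2 and 49.6 CPM (2.48-fold, edgeR adjusted p = 0.0674, DESeq2 adjusted p = 1.34e-04). Icam1, an adhesion molecule for leukocytes, stood at 1.63, 2.96 and 2.22 against 44.1, 6.2 and 18.6 CPM, and Ackr1, a chemokine carrier of venules, at 69.5, 69 and 62.7 against 91.3, 93.9 and 81.3 CPM (1.32-fold, DESeq2 adjusted p = 0.0338). Of 22 blood-brain barrier genes, DESeq2 called 2 higher and 1 lower, with a median of 0.04. With any naive or vehicle library left out it called 0 lower. Higher calls were 0 without naive 1 and 1 without vehicle 1, naive 2 or naive 3. Slc2a1, the glucose transporter of the barrier, was 1.36-fold higher at 96, 97.9 and 103 against 122, 150 and 131 CPM (DESeq2 adjusted p = 0.00438). Slco1c1, its thyroid hormone transporter, was 1.48-fold lower at 27.5, 26.7 and 25.9 against 17.6, 17.3 and 19.3 CPM (DESeq2 adjusted p = 0.0461). Cldn5, a tight junction gene, was at 23.7, 18.6 and 18.7 against 27.6, 14.1 and 20.7 CPM, with overlap. Igfbp7, a secreted protein of vessels, was 2.53-fold higher at 38, 36.6 and 38.3 against 107, 67.2 and 111 CPM (1.34 ± 0.21, edgeR adjusted p = 0.0629). Fibroblast and pericyte genes gave 0 DESeq2 calls among 18.

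Lysosomal genes were higher throughout their list. Of 28 tested, 28 were positive, 19 had no overlap and DESeq2 called 14 higher, with a median of 0.98 and of 1.7, 0.22 and 0.86 in vehicle 1 to 3. The median was 0.56 without vehicle 1, with 4 DESeq2 calls. Calls numbered 23 without vehicle 2, 8 without vehicle 3 and 4, 8 and 5 without naive 1, 2 and 3. Psap, the precursor of the saposins that help break down sphingolipids, was the most even at 1348, 1220 and 1316 against 3037, 2190 and 2268 CPM (1.93-fold, 0.95 ± 0.15, edgeR adjusted p = 0.0629, DESeq2 adjusted p = 1.67e-07). Ctsd, an aspartyl protease, stood at 286, 324 and 293 against 2454, 342 and 1093 CPM (4.31-fold, DESeq2 adjusted p = 0.0224), with vehicle 2 just above the naive range. Among 17 genes of lipid efflux and uptake, 15 were positive and DESeq2 called 9, with a median of 1.08. Leaving out vehicle 1 gave a median of 0.62 with 4 calls, and 4 were called without naive 1 or naive 3. Abca1, the cholesterol exporter, stood at 33.1, 49.3 and 39.4 against 161, 48.5 and 187 CPM (3.25-fold, DESeq2 adjusted p = 0.0107), so vehicle 2 lay inside the naive range as it did for the disease-associated genes.

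Sterol synthesis genes were lower, the reverse of the efflux genes. Of 24 tested, 23 were negative, 12 had no overlap and DESeq2 called 7 lower and 0 higher, with a median of -0.51. Without vehicle 2 DESeq2 called 12 lower, without vehicle 1 it called 2, without naive 3 it called 1 and without vehicle 3, naive 1 or naive 2 it called 0. Hmgcs1, the synthase that opens the mevalonate branch, stood at 567, 653 and 513 against 313, 506 and 311 CPM (1.53-fold lower, -0.62 ± 0.18, edgeR adjusted p = 0.0967, DESeq2 adjusted p = 0.0156). Insig1, a sterol-sensing feedback protein that SREBP2 induces, stood at 34, 28.6 and 26.3 against 19.3, 18.6 and 18.5 CPM (1.58-fold lower, DESeq2 adjusted p = 0.0211). Fdft1, which encodes squalene synthase, stood at 35.9, 37.5 and 36.3 against 23.1, 26.3 and 20.3 CPM (DESeq2 adjusted p = 0.028). Hmgcs1 in vehicle 2 lay just below the naive range, whereas Insig1 and Fdft1 were low in all 3 vehicle libraries. Among 15 fatty acid genes DESeq2 called 1 lower, the desaturase gene Scd1 (193, 188 and 166 against 132, 116 and 119 CPM, 1.49-fold lower, DESeq2 adjusted p = 6.03e-04). The sterol response element core TCACNCCAC was found in 1 of 17 available promoters of the sterol list (5.88%), that of Hmgcs1, against 1.42% of all.

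Myelin genes were lower by modest amounts. Of 25 tested, 21 were negative, 11 had no overlap and DESeq2 called 3 lower and 0 higher, with a median of -0.22. Without vehicle 2, 16 of 25 had no overlap on the lower side and DESeq2 called 7, without vehicle 1 the counts were 14 and 1, and without naive 2 they were 11 and 0, where 21.9%, 17.8% and 16.4% of all genes tested had no overlap on that side. DESeq2 called 1 without vehicle 3, naive 1 or naive 3. Scaling by library totals left 18 of the 25 negative, with a median of -0.19. Mbp, myelin basic protein, stood at 9335, 10170 and 9751 CPM in the naive and 6549, 8851 and 8065 CPM in the vehicle libraries, without overlap but short of the threshold (1.25-fold lower, -0.32 ± 0.15, edgeR adjusted p = 0.265, DESeq2 adjusted p = 0.119). Mog, the glycoprotein often used as the antigen in EAE, stood at 196, 204 and 200 against 147, 200 and 155 CPM, with overlap through vehicle 2. For both genes vehicle 1 was the lowest library and vehicle 2 the closest to naive. Ugt8a, which makes the myelin lipid galactosylceramide, was 1.35-fold lower (DESeq2 adjusted p = 0.0317). Genes of oligodendrocyte precursors and their differentiation had a median of 0.09. Bcas1, a marker of newly formed oligodendrocytes, was lower at 711, 724 and 680 against 521, 550 and 515 CPM (1.33-fold lower, DESeq2 adjusted p = 0.00796), while the precursor receptor gene Pdgfra overlapped. Tns3, also of that list, was at 42.5, 56.5 and 52.4 against 85.9, 56.5 and 78.1 CPM (1.46-fold, DESeq2 adjusted p = 0.0456), with vehicle 2 level with naive 2. Neither Bcas1 nor Tns3 was called with a naive library left out.

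Genes expressed by neurons in general were lower. All 22 tested pan-neuronal genes were negative, 10 had no overlap and DESeq2 called 5 lower, with a median of -0.31. Median differences were -0.47, -0.06 and -0.4 in vehicle 1 to 3. Without vehicle 2, 21 of 22 had no overlap and DESeq2 called 14 lower, without vehicle 1 the counts were 10 and 2, and without naive 2 they were 12 and 2, where 21.9%, 17.8% and 16.4% of all genes tested had no overlap on that side. DESeq2 called 1 without vehicle 3, naive 1 or naive 3. Map2, a dendrite protein gene, stood at 866, 775 and 883 against 601, 697 and 641 CPM (1.3-fold lower, DESeq2 adjusted p = 0.00921). Snap25, a synaptic vesicle fusion gene, was at 1379, 1247 and 1455 against 912, 1365 and 1131 CPM and overlapped through vehicle 2. Inflammatory transcripts took more of the counts in these libraries, as given above for the genes called higher, and their part in the lower neuronal values was not tested.

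Genes of ion channels and transmitter receptors were lower as well. Of 33 voltage-gated channel genes, 31 were negative, 12 had no overlap and DESeq2 called 7 lower and 0 higher, with a median of -0.26. The median was -0.16 without vehicle 1, and without vehicle 2 it was -0.41 with 14 calls. DESeq2 called 3 without vehicle 3 and 2, 4 and 3 without naive 1, 2 and 3. Cacng7, which encodes an auxiliary subunit of AMPA receptors and calcium channels, stood at 106, 122 and 105 against 54.6, 39.8 and 43.5 CPM (2.42-fold lower, -1.27 ± 0.19, edgeR adjusted p = 0.0629, DESeq2 adjusted p = 4.69e-07). Vehicle 2 was the lowest of all, and without vehicle 1 the difference was -1.41. Of 24 genes of glutamate, GABA and glycine signalling, 22 were negative and DESeq2 called 3 lower, with a median of -0.3. Without vehicle 2 it called 9, without naive 2 it called 1 and without any other of the libraries compared it called 0. The median was -0.18 without vehicle 1. Glra1, the glycine receptor subunit of spinal inhibition, stood at 683, 604 and 649 against 399, 575 and 432 CPM (1.38-fold lower, DESeq2 adjusted p = 0.0283). Gabra3 stood at 91.3, 84.4 and 92.7 against 59.6, 71.6 and 61.5 CPM (1.39-fold lower, DESeq2 adjusted p = 0.0126).

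Other lower genes with small p included Hdac5, a histone deacetylase gene (115, 115 and 108 against 64.1, 73.6 and 77.4 CPM), and the vesicle traffic genes Rab6b (1.45-fold lower) and Rab3c (1.49-fold lower). Lypd1, Flywch1, Tmem63c, Sptbn4 and Arhgap32 completed that set, at 1.64, 1.5, 1.96, 1.63 and 1.78-fold lower, with edgeR adjusted p of 0.0629 to 0.0645 over the 8 genes. Lack of overlap between groups was a condition for choosing these 8. Among the largest lower differences that DESeq2 called were Crhbp, the binding protein of corticotropin-releasing hormone (5.25, 5.4 and 6.11 against 1.3, 2.25 and 1.19 CPM, 3.53-fold lower, DESeq2 adjusted p = 0.00796), Drd2, a dopamine receptor gene (2.39-fold lower), and Myoc, myocilin (2.38-fold lower). Neuropeptide genes went both ways, with 7 positive and 7 negative of 14, a median of -0.04 and 1 DESeq2 call. The one called, Sst, stood at 162, 131 and 165 against 94.4, 120 and 94.2 CPM (1.49-fold lower, DESeq2 adjusted p = 0.00462), while Penk, which encodes enkephalins, was at 151, 110 and 148 against 124, 230 and 137 CPM. With vehicle 3, naive 1 or naive 3 left out, DESeq2 called 0 of the neuropeptide genes. Motor neuron genes were negative in 11 of 11 tested cases, with a median of -0.41 and 0 DESeq2 calls. The median was -0.27 without vehicle 1. Chat, which makes acetylcholine, was at 19, 21.4 and 20.7 against 14.8, 21.8 and 16.1 CPM.

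Sensory neuron transcripts of naive 2 touch some of these values. Of 11 dorsal root ganglion genes 9 were tested, and their summed share of counts was 0.00309% to 0.026% in the naive libraries, with the top value in naive 2, and 0.00237% to 0.00364% in the vehicle libraries. Scn10a, a sodium channel of pain-sensing neurons, stood at 0, 41.5 and 0 CPM in the naive and 0, 0.376 and 0 in the vehicle libraries. Scn11a, its neighbour in that cell type, was at 0, 39 and 0 against 0, 0 and 0 CPM, and the lower call that DESeq2 gave it (adjusted p = 5.50e-06) rested on naive 2 alone, while edgeR gave an adjusted p of 0.278. Prph and Calca, in the motor neuron list, are also made by such neurons and had their naive maximum in naive 2, at 104 and 149 CPM. The part of ganglion or root tissue in the motor neuron values was not tested. Schwann cell genes took 0.0915% to 0.142% of naive and 0.0483% to 0.241% of vehicle counts, and skeletal muscle genes 0.0124% to 0.0368% and 0.00997% to 0.0689%. DESeq2 called 1 gene of both lists, Egr2.

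Genes for cytoplasmic ribosomal proteins were higher as a body and evenly so. All 79 tested were positive, 61 (77.2%) had no overlap and DESeq2 called 49 higher and 0 lower, with a median log2 fold change of 0.51. Their median differences were 0.75, 0.36 and 0.45 in vehicle 1 to 3, and their share of all counts was 1.6% to 1.7% in the naive and 2.04% to 2.75% in the vehicle group. Rps16 stood at 110, 100 and 108 against 210, 171 and 187 CPM (1.78-fold, 0.83 ± 0.12, edgeR adjusted p = 0.0629, DESeq2 adjusted p = 7.28e-07). Rpl28 stood at 100, 78.4 and 90.3 against 163, 185 and 157 CPM (1.88-fold, DESeq2 adjusted p = 2.61e-06), with its highest level in vehicle 2. Rpl6 stood at 104, 98.5 and 124 against 177, 170 and 193 CPM (1.66-fold, DESeq2 adjusted p = 7.26e-06). Rplp1 overlapped, at 939, 1056 and 1020 against 1626, 898 and 1033 CPM. Without vehicle 1 the median was 0.39 with 62 members without overlap on the higher side and 1 on the lower, and without vehicle 2 it was 0.6 with 68. DESeq2 called 30 without vehicle 1, 32 without naive 1 and 27 without naive 2. Many ribosomal protein genes have processed copies in the genome, and how reads shared by such copies were counted is not given in the sources used here.

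Mitochondrially encoded transcripts were lower, most of all those counted at transfer RNA genes. Of 22 transfer RNA symbols, a set chosen after its values were seen, 8 had no counts and 12 were tested. All 12 were lower without overlap, against 11.7% of all genes tested, with a median of -1.07 and a range of -1.64 to -0.92. DESeq2 called 9 lower, against 1.86% of all genes tested. The kit primes on poly(A) tails, and whether these reads came from mature transfer RNAs was not tested. TrnA, for alanine, stood at 93.2, 96.2 and 122 against 60.7, 31.9 and 30.7 CPM (2.53-fold lower, -1.34 ± 0.3, edgeR adjusted p = 0.0711, DESeq2 adjusted p = 6.13e-04). TrnF, for phenylalanine, stood at 20.3, 30.3 and 34 against 11.8, 3.94 and 11.2 CPM (3.11-fold lower), and TrnS2, a serine one, at 61.6, 48.8 and 54.2 against 29.1, 25.7 and 22.7 CPM (2.12-fold lower). TrnC and TrnQ, for cysteine and glutamine, were 2.51-fold and 2.39-fold lower. In contrast to inflammatory genes, vehicle 1 was the library nearest to naive, with a median difference of -0.62, and vehicle 2 and vehicle 3 were at -1.29 and -1.57. The median was -1.41 without vehicle 1.

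Both mitochondrial ribosomal RNAs were lower too, with a median of -0.51. mt-Rnr1 stood at 19450, 18248 and 19928 against 15643, 11810 and 10765 CPM, and mt-Rnr2 at 41942, 38108 and 43963 against 34958, 27978 and 29407 CPM. DESeq2 called both. The 7 tested messenger RNAs had a median of -0.25 and 1 DESeq2 call, ND2, a subunit of the first respiratory complex (5005, 4865 and 5246 against 3286, 3961 and 2953 CPM, 1.48-fold lower, DESeq2 adjusted p = 4.64e-04). Without vehicle 2 DESeq2 called 5 of the 7 lower. CYTB, cytochrome b, overlapped at 11089, 10358 and 11784 against 9099, 12536 and 9797 CPM. The 46 nuclear genes of the respiratory chain had a median of -0.06 and 0 DESeq2 calls. Transfer RNAs lie end to end with other mitochondrial genes on both strands, and whether counting used strand is not given in the sources used here. 

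**Figure D5:**
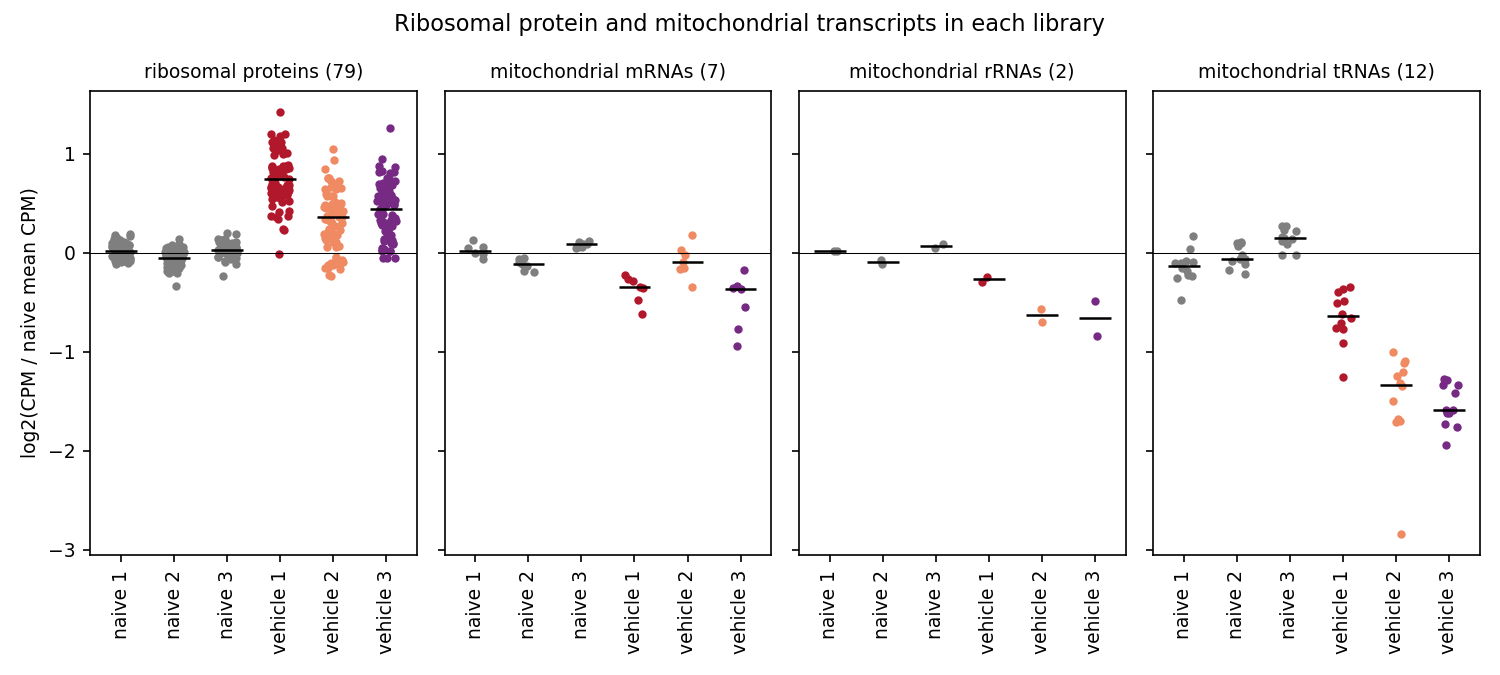
Level relative to the naive mean CPM on the log2 scale for cytoplasmic ribosomal protein genes and for mitochondrial transfer, ribosomal and messenger RNAs, by library, with each point a gene and bars at the medians. Most ribosomal protein genes lie above 0 in the 3 vehicle libraries, and all 12 mitochondrial transfer RNAs lie below 0 there, least so in vehicle 1.

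Targets of glucocorticoids, hormones that rise under stress and dampen inflammation, differed evenly by library. Of 15 tested, 13 were positive, 8 had no overlap and DESeq2 called 4 higher, with a median of 0.41 and of 0.62, 0.5 and 0.53 in vehicle 1 to 3. With any of the 6 libraries left out, DESeq2 called 2. Fkbp5, a co-chaperone of the receptor, stood at 13.8, 11 and 14.8 against 27.2, 22.4 and 19.7 CPM (1.75-fold, DESeq2 adjusted p = 0.0478). Sgk1, a kinase gene, stood at 25, 46.2 and 45.1 against 207, 76.8 and 82.7 CPM (3.15-fold, DESeq2 adjusted p = 0.00715), and Angptl4, an inhibitor of lipoprotein lipase, at 0.543, 0.871 and 1.11 against 8.15, 3.76 and 4.07 CPM (6.17-fold, DESeq2 adjusted p = 0.00102). Tsc22d3, the gene of the glucocorticoid-induced leucine zipper, was at 151, 155 and 160 against 137, 178 and 132 CPM, with overlap, and so was the receptor gene Nr3c1. The members called are also targets of other signals.

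Heat shock and unfolded protein genes were at their naive level as a list (median -0.01), with 2 DESeq2 calls among 21. Xbp1, a factor of the unfolded protein response and of plasma cells, stood at 33.9, 35.4 and 39.6 against 62, 55.4 and 60.5 CPM (1.64-fold, 0.71 ± 0.11, edgeR adjusted p = 0.0629). NRF2 antioxidant genes gave a median of 0.08, with Slc7a11, the cystine transporter, 1.83-fold higher (DESeq2 adjusted p = 0.013). DESeq2 called 1 NRF2 gene higher and 1 lower, and 0 without vehicle 3, naive 1 or naive 3. In the iron list Ftl1, ferritin light chain, stood at 86.4, 103 and 95.8 against 555, 163 and 305 CPM (3.59-fold, DESeq2 adjusted p = 0.00192), and its partner Fth1 was at 5331, 5680 and 5716 against 6990, 5702 and 5806 CPM. Proliferation genes had a median of 1.23, with 20 of 21 positive, 9 without overlap and 4 DESeq2 calls. It was 0.82 without vehicle 1, and DESeq2 called 0 without vehicle 1 and 1 without naive 1. Top2a, a DNA topoisomerase of dividing cells, stood at 4.35, 8.37 and 7.03 against 46.7, 14.5 and 10 CPM (3.56-fold, DESeq2 adjusted p = 0.00765). Pbk, a mitotic kinase gene, is not in that list and was named for its small p. It stood at 0.362, 0.349 and 0.37 against 10.7, 5.07 and 3.56 CPM (16.8-fold, 4.07 ± 0.69, edgeR adjusted p = 0.0629, DESeq2 adjusted p = 1.42e-04).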

How the data were processed

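RNA of 9 whole cord samples was sequenced. The deposited tables give unscaled counts of reads for each gene symbol, and the submitters' processing notes name FastQC, STAR, HTSeq and the build GRCm39, without versions, parameters or annotation. Whether counting used strand or molecular identifiers is not given in the sources used here. The 9 tables of single libraries held the same counts as the table of all samples, which was used, and 1 further numeric column of it was not. Groups were read from the treatment labels of the samples.

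The filter filterByExpr (minimum count 10) left 15351 genes, which were normalised by TMM and tested with edgeR 4.0.16 in R 4.3.3, by the quasi-likelihood F test on all 9 libraries with 1 coefficient per group. P-values were adjusted by the Benjamini-Hochberg method over all genes tested, with a threshold of 0.05. Standard errors were derived from the F statistic. DESeq2 1.42.0 on the same genes and limma-voom (limma 3.58.1) were alternatives, and DESeq2 gave no adjusted p for 11 genes. Levels are CPM with TMM scaling. Per-library differences of lists are medians of log2 CPM (prior count 2). The procedure was tested on simulated data with known differences. There a limit on false calls was required of edgeR and limma-voom, and not of DESeq2. Figures used matplotlib 3.10.9.

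A list is described by its counts and its median fold change, beside those of all genes tested. Members and lists were chosen with earlier results of these data known. Named genes were the edgeR calls, in each direction the 10 smallest p and the 8 largest folds among DESeq2 calls (5 CPM or more, no overlap, predicted symbols and immune receptor segments left out), for each list the 2 members with the smallest p and the one with the highest level, and Atf3, Lrg1, Ccl12, Mbp, Mog, Gfap, Aif1, P2ry12, Tmem119, Cd74 and Cd4. Some genes that this rule names are not reported here. Other genes named as members of a list were chosen after their values were seen. Folds against 0 counts use a floor of 3 counts over the group, and ratios with 1 to 3 counts have exact Poisson 95% intervals. The floor covers counting error only in the group without counts, and the intervals cover that of both groups. Neither covers the spread between libraries. Promoters come from a RefSeq table on an earlier build than the counts, matched by symbol for 11740 of the genes tested, and no other coordinates were used. Alternatives covered the tool, normalisation, filter, form of the fit, threshold, groups in the fit, replicate number as a block, and leaving out each library.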

Additional observations from a re-analysis of the deposited data

How the results depend on the processing

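Against the edgeR counts of 3 genes higher and 0 lower, DESeq2 gave 823 and 286, library totals without TMM 19 and 1, no filter 448 and 95, 10 counts in every library 1 and 0, limma-voom 0 and 0, and an adjusted p of 0.1 gave 583 and 279. DESeq2 size factors and the older form of the fit gave 3 and 0. The replicate number as a block gave 0 and 0. Same-numbered libraries had correlations of -0.123, -0.169 and -0.095 after group means were removed. Whether they shared a preparation batch was not tested. Leaving out each library in turn gave 0 to 1183 genes higher and 0 to 469 lower in edgeR. By alternatives chosen after seeing the data, DESeq2 without each library, over the genes that passed the count filter in the libraries kept, gave 257 to 1281 higher and 67 to 548 lower, and DESeq2 on the 6 libraries alone 701 and 189. Genes without overlap numbered 1880 to 3429 on the higher and 1792 to 3346 on the lower side with a library left out. Atf3 kept a log2 fold change of 3.6 to 4.14 and passed in 9 of 17 alternatives, Ccl12 4.13 to 4.46 and 10 of 17, and Lrg1 2.67 to 3.06 and 12 of 18. Over 756 values of 43 named genes, 0 reversed in sign, 21 lost and 124 gained a call against the main edgeR test. Only Atf3, Ccl12 and Lrg1 had a call to lose. Most of the 43 genes were chosen for lack of overlap between groups, so leaving out a library could hardly reverse their sign. The alternatives counted here include DESeq2 and limma-voom. Of 676 list medians under alternatives, 653 moved by less than the spread between vehicle libraries and 23 by more. With 10 counts required in every library, the medians were 0.37 for chemokine ligands, 0.31 for dendritic cells, 0.19 for B and plasma cells, 0.04 for heat shock and -0.75 for dorsal root ganglion genes. In a fit of the naive and vehicle libraries only they were 0.4, 0.28 and -1.15 for dendritic, B and plasma and ganglion genes. With a library left out, they ranged from 0.53 to 1.33 for neutrophils, 0.36 to 1.08 for dendritic cells, -0.26 to -0.05 for fatty acid synthesis, 0.01 to 0.23 for NRF2 targets, 0.39 to 0.57 for glucocorticoid targets, -0.05 to 0.07 for heat shock, -0.02 to 0.23 for cilia and -3.54 to 0.0 for ganglion genes. The cause was not tested. Depth limits genes under about 0.5 CPM, where cytokine genes lie, and 3 libraries per group limit every call.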
